A study of Homo sapiens with 6 samples.

Results

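The mitosis and G2/M genes are 60 genes, chosen by name, whose products carry a cell from the end of DNA replication through chromosome segregation to cytokinesis. Of these, 59 matched a row among the 9598 named genes of the expression table, and CENPE was not analysed here. RNA was measured in 3 human bladder cancer cell lines, each with 1 library after 2 days with the histone deacetylase (HDAC) inhibitor quisinostat and 1 library with the solvent DMSO. RT4 and RT112 cells are labelled as carrying an FGFR3-TACC3 fusion and SW780 cells as carrying an FGFR3-BAIBP2L1 fusion, so every library comes from cells with an FGFR3 fusion. Quisinostat was used at 50 nM in RT4, 10 nM in RT112 and 25 nM in SW780, so that dose and cell line changed together and cannot be told apart. For the quisinostat library of SW780, 1 label spells the line differently from the title, and the title was followed. Values are FPKM, read fragments scaled by transcript length and by the mapped fragments of the library, with 1 value per assembled locus. Read counts are not part of the values, so depth is unknown and no counting interval can be given. With 1 library per line and treatment, a difference within a line has no replicate check. In bulk RNA, fewer dividing cells and less mitotic RNA per cell cannot be told apart.

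Entry into mitosis is driven by CDK1 bound to cyclins A and B. Aurora and Polo-like kinases then build the spindle, kinesins move and align the chromosomes, and the spindle assembly checkpoint holds back the anaphase-promoting complex (APC/C) until every kinetochore is attached. Most of these genes are transcribed late in the cell cycle. Their promoters are known for CCAAT boxes, bound by NF-Y, and for the cell cycle genes homology region (CHR), bound by the MuvB complex, which acts with B-MYB and FOXM1 in dividing cells and with RB family proteins in resting cells. HDAC inhibitors are known to raise CDKN1A, which encodes the CDK inhibitor p21, and to slow proliferation.

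Promoter windows were read from RefSeq (GRCh38.p14, 250 bases before to 50 after the annotated start) for 50 of the 59 genes. No entry was found for AURKA, BIRC5, BUB3, TTK, UBE2C, TPX2, RACGAP1, HMGB2 and FOXM1. The letters CCAAT, on either strand, were found in the windows of 39 of the 50 genes (78.0%), against 39.7% of 27305 RefSeq genes and 43.7% of the 7249 genes of the table that had an entry. At least 2 such matches were found in 25 genes (50.0%, against 12.9% of RefSeq genes). The CHR letters, taken as TTTGAA or TTTAAA on either strand, were found in 43 genes (86.0%, against 27.9%), and both motifs in the same window in 33 genes (66.0%, against 11.2%). CDCA5, CKAP2 and MYBL2 held neither (6%, against 45.1%). A match is a description of letters and not evidence of binding.

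The 140 bases before the start are printed for 7 genes, because genes that hold both motifs had different ratios after quisinostat. CCNB1, CCNB2, KIF20A and CKS1B are shown with CKS2 and PTTG1, which were higher in RT4, and with MYBL2, which lacks both motifs. Capitals mark CCAAT, which reads ATTGG where it lies on the other strand, and the CHR letters, where TTTGAA on the other strand reads TTCAAA and the remaining form is the same on both strands. All 7 lie on the plus strand: CCNB1 at chr5:69167010-69167149, CCNB2 at chr15:59105006-59105145, KIF20A at chr5:138178972-138179111, CKS1B at chr1:154974541-154974680, CKS2 at chr9:89311055-89311194, PTTG1 at chr5:160421715-160421854 and MYBL2 at chr20:43666974-43667113. Longer GENCODE 29 gene models begin inside or before all of these windows but that of CKS2.
CCNB1: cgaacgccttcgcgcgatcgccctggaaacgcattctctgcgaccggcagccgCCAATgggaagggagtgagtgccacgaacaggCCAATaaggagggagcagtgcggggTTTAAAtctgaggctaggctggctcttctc
CCNB2: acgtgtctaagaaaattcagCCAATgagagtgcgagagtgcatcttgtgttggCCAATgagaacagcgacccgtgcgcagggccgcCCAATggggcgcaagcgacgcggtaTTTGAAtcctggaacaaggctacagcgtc
KIF20A: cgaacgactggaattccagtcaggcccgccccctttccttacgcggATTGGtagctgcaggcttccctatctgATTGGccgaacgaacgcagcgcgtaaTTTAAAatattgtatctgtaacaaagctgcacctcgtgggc
CKS1B: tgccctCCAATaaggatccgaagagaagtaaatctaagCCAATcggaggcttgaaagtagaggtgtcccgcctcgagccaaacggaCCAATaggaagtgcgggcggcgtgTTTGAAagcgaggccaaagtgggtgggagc
CKS2: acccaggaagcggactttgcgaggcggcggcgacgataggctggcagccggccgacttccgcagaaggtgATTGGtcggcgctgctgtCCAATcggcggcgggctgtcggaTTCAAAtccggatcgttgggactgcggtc
PTTG1: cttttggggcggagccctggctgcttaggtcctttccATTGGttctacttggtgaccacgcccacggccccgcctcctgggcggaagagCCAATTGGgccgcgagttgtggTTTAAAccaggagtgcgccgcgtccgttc
MYBL2: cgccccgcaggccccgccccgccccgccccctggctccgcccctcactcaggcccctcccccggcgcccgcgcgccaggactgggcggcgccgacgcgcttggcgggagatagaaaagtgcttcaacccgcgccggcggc

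In CCNB1 the CCAAT matches began 87 and 55 bases before the start and the CHR match 30 bases before it. CCNB2 had 3 CCAAT matches, at 120, 87 and 54 bases, and CKS1B also had 3, at 134, 102 and 54 bases, with CHR matches at 29 and 30 bases. CKS2 (CCAAT at 70 and 52 bases, CHR at 29) and PTTG1 (CCAAT at 103, 51 and 48 bases, CHR at 29) had their CHR match at nearly the same place, with another spacing of CCAAT matches on both strands. In PTTG1 the last pair of CCAAT matches lie on opposite strands and overlap. KIF20A, which was called lower in RT4 and SW780, had CCAAT matches at 94 and 67 bases, both on the other strand, and its CHR match at 41. Whether the layout of the matches goes with the ratios was not tested. Over the 33 genes with both motifs in one window, the median log2 ratio of quisinostat over DMSO was -0.06, -0.35 and -0.64 in RT4, RT112 and SW780. Over the 14 genes with 1 of the motifs, or with both only in separate windows, it was -0.13, -0.45 and -0.78 in the same order.

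Mitosis genes were lower with quisinostat most widely in SW780, less so in RT112, and were divided in RT4. The order of RT112 and RT4 did not remain after a correction for the GC content of transcripts, described below, where their medians were -0.29 and -0.30. The median log2 ratio of the 59 genes was -0.12, -0.35 and -0.64 in RT4, RT112 and SW780, where the medians of all 9112 loci above 0 in every library were 0.08, 0.06 and 0.04. A gene was called lower below a log2 ratio of -0.3 and higher above 0.3, which is a size and not a test. In SW780, 51 of 59 genes were called lower, against 28.2% of all loci. In RT112, 34 were called lower, against 25.2% of all loci. In RT4, 22 were called lower, against 33.5% of all loci, so that the share of these genes, 37.3%, was near the background. Calls of higher were fewer than the background in each line, with 11 genes in RT4 (40.3% of all loci), 6 in RT112 (36.0%) and 1 in SW780 (32.8%).

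**Figure D1:**
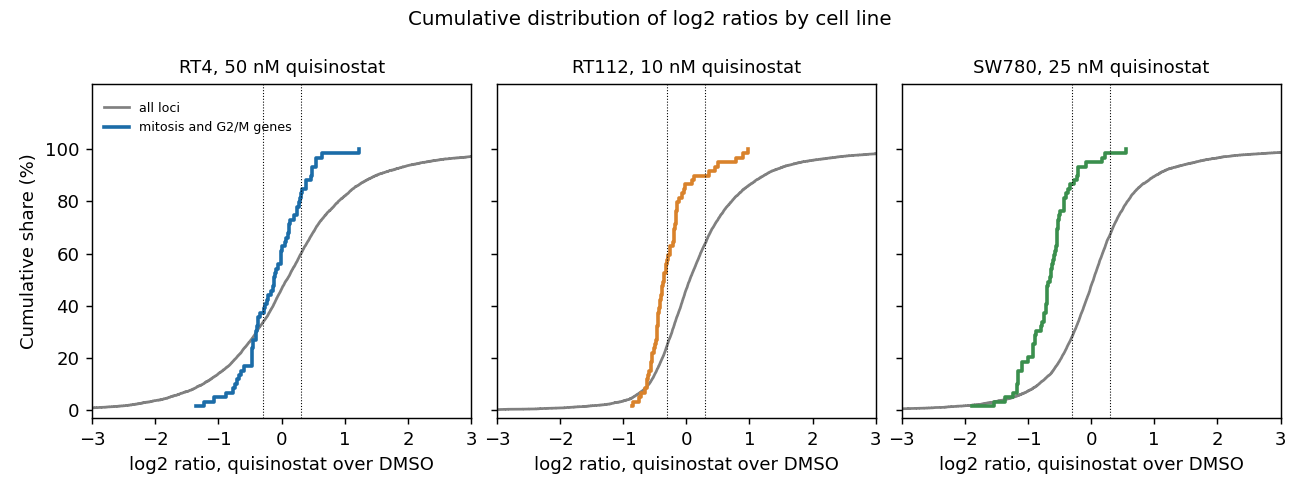
Cumulative share of loci (vertical axis, %) at or below each log2 ratio of quisinostat over DMSO (horizontal axis), 1 panel per cell line, for all loci (grey) and the 59 mitosis and G2/M genes (coloured steps), with dotted lines at -0.3 and 0.3. The coloured steps stand left of the grey curve over nearly their whole range in RT112 and SW780, and cross it in RT4, where the median of the 59 genes was -0.12.

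In all 3 lines together, 7 of the genes were called lower, against 4.99% of all loci: CCNB2, CKS1B, PLK4, CENPN, KIF20B, MKI67 and HMGB2. No gene was called higher in all 3, against 11.4% of all loci. A ratio below 0 in every line was found for 26 genes, against 16.6% of all loci. The commonest pattern, in 16 genes including CCNA2, CCNB1, BUB1 and TOP2A, was a lower call in RT112 and SW780 with a ratio within 0.3 of 0 in RT4 (27.1% of the genes, against 2.79% of all loci). In 9 genes, including CDC20, UBE2C, KIF20A and FOXM1, the lower calls were in RT4 and SW780 (15.3%, against 5.52% of all loci). In 6 genes (CDK1, NUF2, KIF14, RACGAP1, NCAPG and NCAPH) RT4 was higher while the other lines were lower (10.2%, against 1.71% of all loci). In 5 genes (AURKB, INCENP, KIF18B, KIFC1 and MYBL2) RT112 was higher while the other lines were lower (8.47%, near the 7.35% of all loci). Counting every such split, 16 genes (27.1%) were called higher in some line and lower in another, near the 29.3% of all loci. SW780 had the lowest of the 3 ratios in 40 genes, and only BUB3, PTTG1 and SMC2 were not below 0 there. Of all 9112 loci, 4340 were below 0 in SW780. Ratios below -1 were found for 11 genes in SW780, for CCNF, KIF18B and MYBL2 in RT4 and for none in RT112. The shares of all loci with SW780 lowest, or with a ratio below -1, were not counted.

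**Figure D2:**
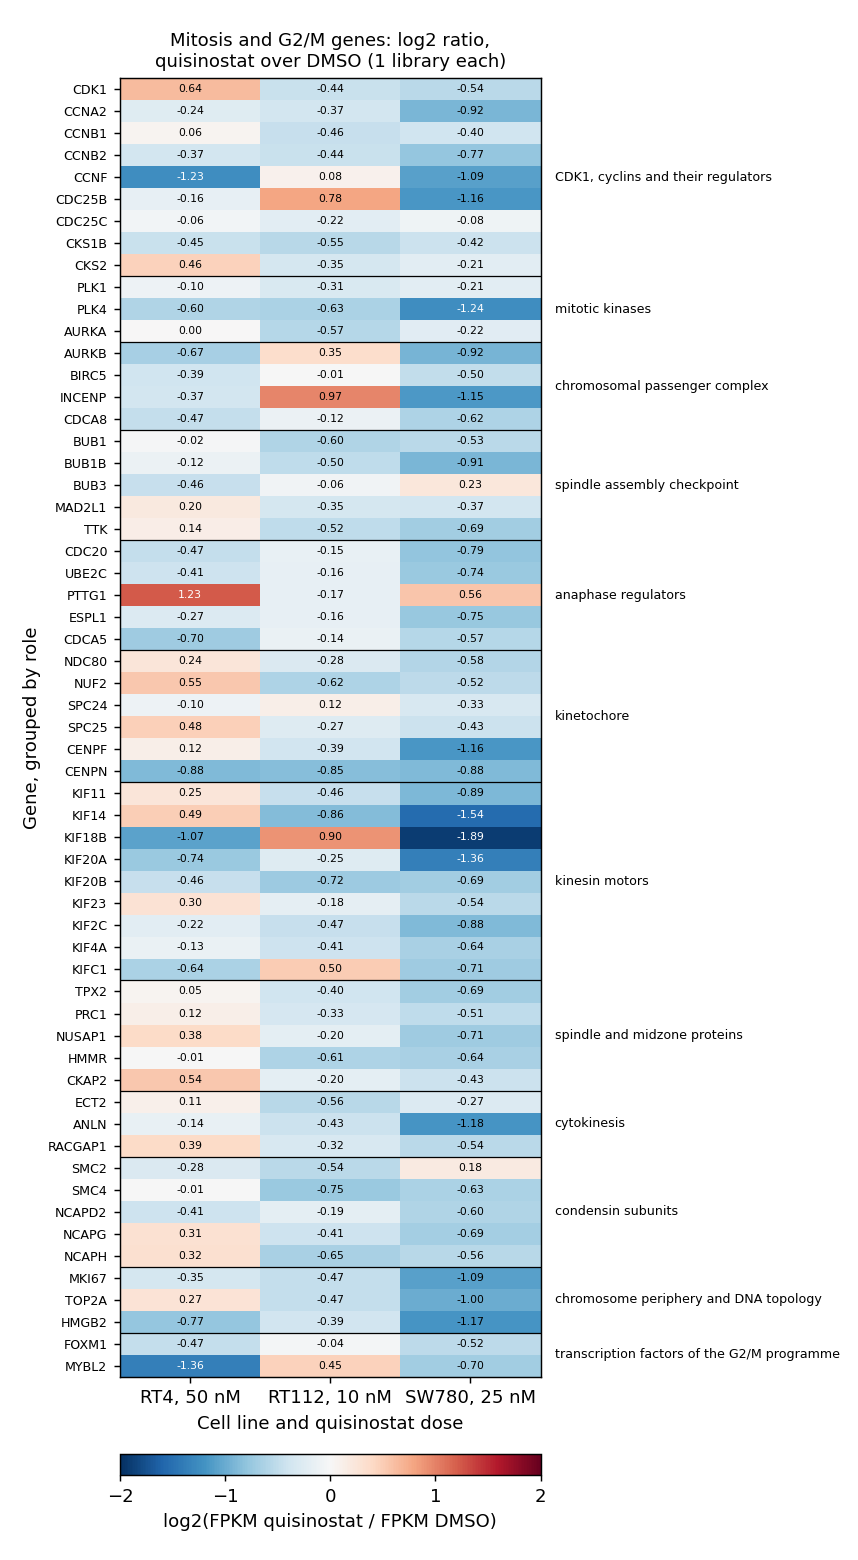
log2 ratio of quisinostat over DMSO for each of the 59 genes (rows, grouped by role) in each cell line (columns, with the dose), with blue for lower and red for higher FPKM and the value written in each cell (1 library per line and treatment). The SW780 column is blue in all but 3 rows, CENPN has nearly the same value in all columns, and PTTG1 stands out in red at 1.23 in RT4.

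Among CDK1, the cyclins and their regulators, 7 of 9 genes were called lower in SW780, 6 in RT112 and 3 in RT4. Over all loci the shares called lower were 28.2%, 25.2% and 33.5% in the same order, so that the count in RT4 was near the background. The same shares stand behind the counts of each role below, and several of the RT4 counts are at or under them. CDK1, the kinase that drives mitotic entry, was at 26.7 FPKM with DMSO and 41.4 with quisinostat in RT4, 62.7 and 46.1 in RT112, and 56.3 and 38.7 in SW780. RT4 moved against the other lines, with log2 ratios of 0.64, -0.44 and -0.54. CCNA2, cyclin A2 of S phase and G2, went from 15.2 to 12.9 FPKM in RT4, from 23.8 to 18.4 in RT112 and from 25.7 to 13.6 in SW780. Its ratios were below 0 throughout, at -0.24, -0.37 and -0.92. CCNB1, cyclin B1, the partner of CDK1 at mitotic entry, was at 78.6 and 82.1 FPKM in RT4, 122 and 88.8 in RT112, and 104 and 79.1 in SW780. CCNB1 was nearly level in RT4 (log2 ratio 0.06) and lower in the other lines (-0.46 and -0.40), whereas its close relative CCNB2 was lower in all (-0.37, -0.44 and -0.77).

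CCNF, cyclin F, the substrate-binding part of a ubiquitin ligase active in G2, went from 5.72 to 2.43 FPKM in RT4, from 11.6 to 12.3 in RT112 and from 11.2 to 5.27 in SW780. The RT4 and SW780 ratios (-1.23 and -1.09) stand far below that of RT112 (0.08). CKS1B and CKS2, paralogous small proteins that bind CDK1, differed from each other. CKS2 was at 74.8 and 103 FPKM in RT4, 126 and 98.8 in RT112, and 115 and 99.8 in SW780, with ratios of 0.46, -0.35 and -0.21. CKS1B had ratios of -0.45, -0.55 and -0.42. Of the phosphatases that activate CDK1, CDC25B had ratios of -0.16, 0.78 and -1.16 on levels of 1.64 to 5.21 FPKM, and CDC25C stayed within 0.3 of 0 in every line (-0.06, -0.22 and -0.08). CKS1B, CKS2, PTTG1 and HMGB2 have processed copies elsewhere in the genome that may share reads with them.

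The 3 mitotic kinases were all called lower in RT112. PLK1, which acts from centrosome maturation to cytokinesis, was at 7.01 and 6.54 FPKM in RT4, 11.3 and 9.12 in RT112, and 10.2 and 8.80 in SW780. These are small differences in 1 direction (-0.10, -0.31 and -0.21). AURKA, the centrosomal Aurora kinase, was at 26.3 FPKM in both RT4 libraries, 59.8 and 40.4 in RT112, and 54.7 and 46.8 in SW780, with ratios of 0.00, -0.57 and -0.22. PLK4, which starts centriole duplication, went from 3.58 to 2.36 FPKM in RT4, from 3.23 to 2.09 in RT112 and from 4.19 to 1.77 in SW780. PLK4 was lower in every line (-0.60, -0.63 and -1.24).

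The 4 members of the chromosomal passenger complex, which corrects kinetochore attachments and guides cytokinesis, were called lower in both RT4 and SW780, and none was called lower in RT112. AURKB, its kinase, went from 17.9 to 11.2 FPKM in RT4, from 14.4 to 18.3 in RT112 and from 25.1 to 13.3 in SW780 (-0.67, 0.35 and -0.92). BIRC5, survivin, was at 25.8 and 19.6 FPKM in RT4, 18.8 and 18.6 in RT112, and 23.7 and 16.8 in SW780 (-0.39, -0.01 and -0.50). The BIRC5 locus also carries the name AFMID, a neighbouring gene, so its value may hold reads of both. CDCA8, borealin, went from 29.7 to 21.4 FPKM in RT4, from 29.9 to 27.4 in RT112 and from 30.3 to 19.7 in SW780 (-0.47, -0.12 and -0.62). INCENP, the scaffold of the complex, had ratios of -0.37, 0.97 and -1.15. In each of the 4 subunits the ratio of RT112 was the highest and that of SW780 the lowest.

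In the spindle assembly checkpoint the order was another, with 4 of 5 genes called lower in RT112 and in SW780 and 1 in RT4. BUB1, a checkpoint kinase at the kinetochore, was at 20.2 and 19.9 FPKM in RT4, 32 and 21.2 in RT112, and 33.6 and 23.3 in SW780 (-0.02, -0.60 and -0.53). BUB1B, TTK and MAD2L1 had ratios from -0.12 to 0.20 in RT4, from -0.52 to -0.35 in RT112 and from -0.91 to -0.37 in SW780. The BUB1B locus also carries the name PAK6. BUB3, the partner of BUB1, was the exception, at 11.9 and 8.63 FPKM in RT4, 13.0 and 12.4 in RT112, and 11.8 and 13.8 in SW780 (-0.46, -0.06 and 0.23).

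Of the 5 anaphase regulators, 3 were called lower in RT4, none in RT112 and 4 in SW780. CDC20, which activates the APC/C, went from 70.2 to 50.6 FPKM in RT4, from 72.3 to 64.9 in RT112 and from 79.7 to 46.0 in SW780 (-0.47, -0.15 and -0.79). UBE2C, the ubiquitin-conjugating enzyme of the APC/C, had ratios of -0.41, -0.16 and -0.74, and CDCA5, sororin, which protects cohesion, of -0.70, -0.14 and -0.57. PTTG1, securin, the inhibitor of separase, went the other way in RT4 and SW780: it was at 44.3 and 104 FPKM in RT4, 93.4 and 83.2 in RT112, and 70.6 and 104 in SW780. Its ratios of 1.23, -0.17 and 0.56 made it the only gene of the 59 with a mean ratio above 0 and the only one called higher in SW780. ESPL1, the separase that PTTG1 holds in check, had ratios of -0.27, -0.16 and -0.75 at 1.95 to 4.38 FPKM.

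All 6 kinetochore genes measured were called lower in SW780, 3 in RT112 and 1 in RT4. NDC80, the microtubule-binding subunit of the complex named after it, was at 16.2 and 19.2 FPKM in RT4, 35.4 and 29.1 in RT112, and 31.3 and 20.9 in SW780 (0.24, -0.28 and -0.58). SPC25, another subunit, was at 6.27 and 8.73, 16.0 and 13.3, and 12 and 8.89 FPKM in the same order (0.48, -0.27 and -0.43). SPC24, with which SPC25 pairs, was at 10.2 and 9.59, 12.8 and 13.9, and 6.35 and 5.06 FPKM (-0.10, 0.12 and -0.33). NUF2, of the same complex, had 0.55 in RT4 against -0.62 and -0.52, so none of the 4 subunits was called lower in every line. CENPN, which reads the centromeric nucleosome, was different: it went from 7.22 to 3.91 FPKM in RT4, from 12.8 to 7.12 in RT112 and from 13.5 to 7.34 in SW780. Its ratios of -0.88, -0.85 and -0.88 have the lowest mean of the 59 genes (-0.87 ± 0.02, SD, n = 3 lines). CENPF, a large kinetochore protein of G2 and mitosis, had 0.12, -0.39 and -1.16.

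The 9 kinesin motors were all called lower in SW780, with 5 in RT112 and 4 in RT4. KIF20A, which carries the passenger complex to the central spindle, went from 34.9 to 20.9 FPKM in RT4, from 52.6 to 44.2 in RT112 and from 46.4 to 18 in SW780 (-0.74, -0.25 and -1.36). KIF18B, a depolymerase of astral microtubules, went from 4.55 to 2.17 FPKM in RT4, from 2.69 to 5.04 in RT112 and from 3.97 to 1.07 in SW780. Its ratios of -1.07, 0.90 and -1.89 span the widest range of the 59 genes, 2.79 on the log2 scale, on low FPKM. KIF14, KIF11 and KIF23 were above 0 in RT4 (0.49, 0.25 and 0.30) and lowest in SW780 (-1.54, -0.89 and -0.54), whereas KIF20B was lower in all lines (-0.46, -0.72 and -0.69). KIFC1 had -0.64, 0.50 and -0.71, the same signs as KIF18B. KIF2C and KIF4A were called lower in RT112 (-0.47 and -0.41) and SW780 (-0.88 and -0.64) only.

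All 5 spindle and midzone proteins were called lower in SW780, 3 in RT112 and none in RT4. TPX2, the activator of AURKA on the spindle, was at 43.7 and 45.2 FPKM in RT4, 69.8 and 52.8 in RT112, and 87.0 and 53.8 in SW780 (0.05, -0.40 and -0.69). PRC1, the bundler of midzone microtubules, and HMMR had 0.12 and -0.01 in RT4, with -0.33 and -0.61 in RT112 and -0.51 and -0.64 in SW780. CKAP2 was at 13.9 and 20.2 FPKM in RT4, 26.0 and 22.7 in RT112, and 28.3 and 21.0 in SW780 (0.54, -0.20 and -0.43). NUSAP1, which stabilises spindle microtubules, resembled CKAP2 (0.38, -0.20 and -0.71). Among the cytokinesis genes, RACGAP1, part of centralspindlin, was at 31.6 and 41.4 FPKM in RT4, 58.9 and 47.3 in RT112, and 56.9 and 39.2 in SW780 (0.39, -0.32 and -0.54). ECT2, the exchange factor it recruits, had 0.11, -0.56 and -0.27, and ANLN, anillin of the contractile ring, -0.14, -0.43 and -1.18.

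Condensin subunits, which compact chromosomes, were called lower in 4 of 5 genes in RT112 and in SW780, and in 1 in RT4. NCAPD2 went from 46.3 to 34.8 FPKM in RT4, from 54.4 to 47.5 in RT112 and from 52.2 to 34.5 in SW780 (-0.41, -0.19 and -0.60). NCAPG and NCAPH, of the same complex, were higher in RT4 (0.31 and 0.32) and lower elsewhere (-0.41 and -0.65 in RT112, -0.69 and -0.56 in SW780). The core ATPases differed in SW780, where SMC4 had -0.63 and SMC2 0.18, with -0.75 and -0.54 in RT112 and -0.01 and -0.28 in RT4.

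MKI67, TOP2A and HMGB2, which coat, untangle and bend chromosomal DNA, had the lowest median of any role in SW780, -1.09. MKI67, the Ki-67 proliferation marker, went from 35.0 to 27.5 FPKM in RT4, from 55.4 to 39.9 in RT112 and from 42.7 to 20.04 in SW780, and was lower in each line (-0.35, -0.47 and -1.09). TOP2A, topoisomerase II alpha, was at 67.5 and 81.3 FPKM in RT4, 111 and 80.3 in RT112, and 119 and 59.7 in SW780. TOP2A was thus above 0 in RT4 (0.27) where MKI67 was not, and lower in the other lines (-0.47 and -0.999). HMGB2 went from 52.3 to 30.6 FPKM in RT4, from 50.0 to 38.2 in RT112 and from 51.2 to 22.7 in SW780 (-0.77, -0.39 and -1.17). Both transcription factors of the programme were called lower in RT4 and SW780 and neither in RT112. FOXM1 was at 48.5 and 34.9 FPKM in RT4, 30.8 and 29.9 in RT112, and 36.7 and 25.6 in SW780 (-0.47, -0.04 and -0.52). MYBL2, B-MYB, went from 16.9 to 6.598 FPKM in RT4, from 43.6 to 59.7 in RT112 and from 33.1 to 20.4 in SW780 (-1.36, 0.45 and -0.70), the lowest ratio of the 59 genes in RT4.

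**Figure D3:**
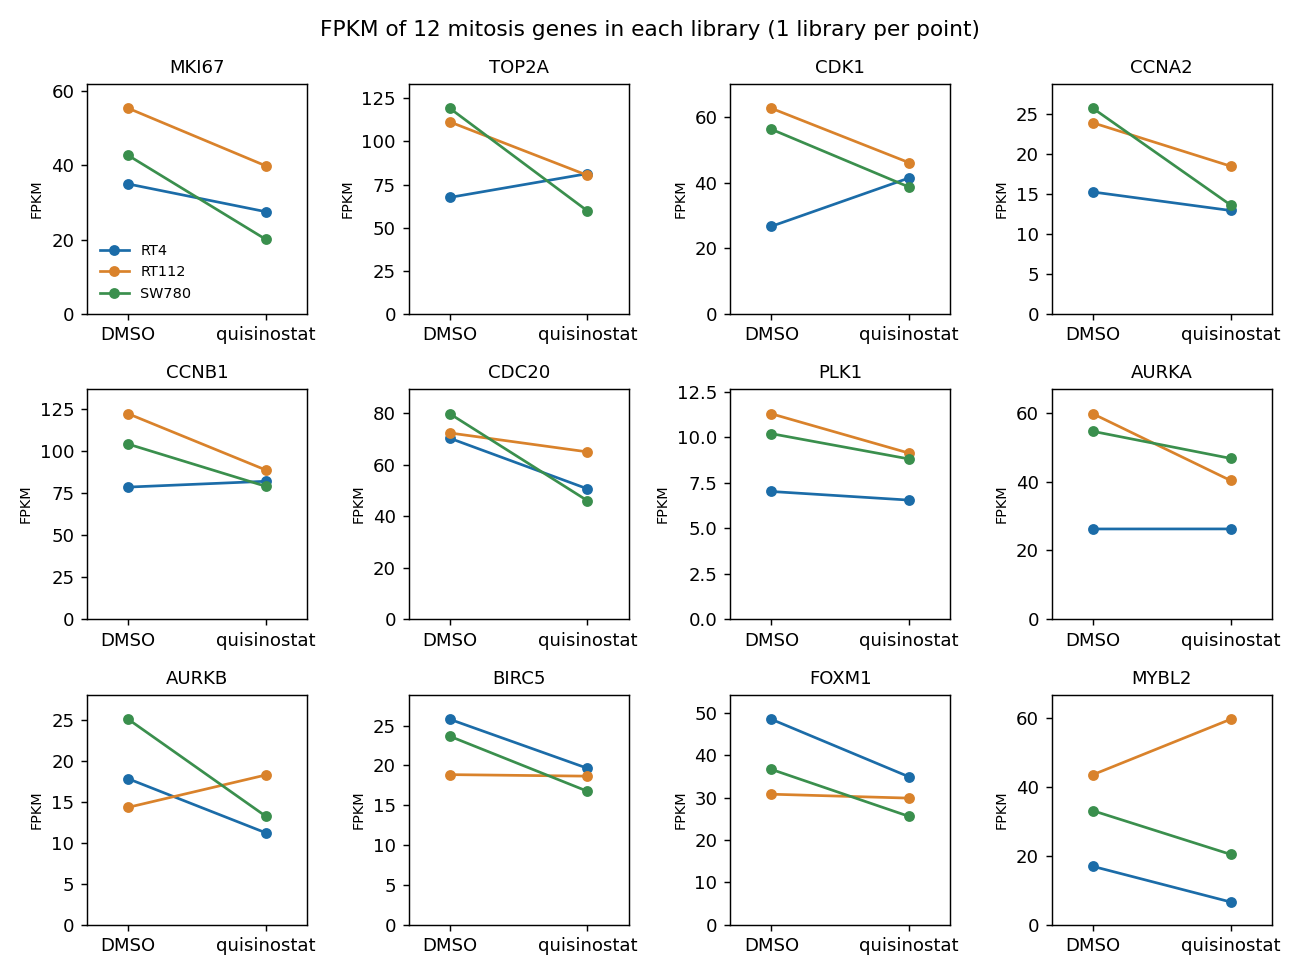
FPKM (vertical axis, from 0) of 12 mitosis and G2/M genes with DMSO and with quisinostat (horizontal axis), with each point 1 library and each line 1 cell line. RT4 lies lowest with DMSO in most panels. MKI67, CCNA2, CDC20, PLK1, BIRC5 and FOXM1 slope down in every line, CDK1, TOP2A and, slightly, CCNB1 slope up in RT4 only, and AURKB and MYBL2 slope up in RT112 only.

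Before treatment the lines differed in these genes, and RT4 had the least. With DMSO the median FPKM of the 59 genes was 16.2, 26.4 and 25.1 in RT4, RT112 and SW780, and RT4 was the lowest line for 47 genes. With quisinostat the medians were 14.8, 21.2 and 16.3. RT4 was then lowest for 27 genes and SW780 for 29, and RT112 was highest for 41. Over all loci the median FPKM in RT4, RT112 and SW780 was 6.86, 6.59 and 6.93 with DMSO, and 7.39, 7.29 and 7.39 with quisinostat. How often each line was lowest or highest over all loci was not counted. The summed FPKM went from 1336 to 1316 in RT4, from 2129 to 1716 in RT112 and from 1989 to 1335 in SW780, so that RT4 and SW780 were close after treatment. The range between lines was smaller with quisinostat than with DMSO for 35 genes (59.3%, against 46.6% of all loci), and its median fold went from 1.78 to 1.58. Both directions were found among the genes above. CDK1 ranged 2.35-fold between lines with DMSO and 1.19-fold with quisinostat, whereas MYBL2 ranged 2.57-fold and 9.05-fold. All 59 genes were above 0 in every library, from 1.07 to 126 FPKM.

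The GC content of the transcript moved with these patterns. Over the 59 genes, GC content (34.2% to 60.5%, median 46.4%) had a Spearman correlation with the log2 ratio of -0.60, 0.69 and -0.18 in RT4, RT112 and SW780. Over 8348 other loci it was -0.49, 0.44 and -0.22, so the same signs were found across the libraries. The points of a line share the same 2 libraries and are not replicates. The 18 genes with at least 50% GC, among them CCNF, AURKB, CDC20, FOXM1 and MYBL2, were all below 0 in RT4 (median -0.44), near 0 in RT112 (-0.03) and low in SW780 (-0.72). The 14 genes below 40% GC, among them CDK1, NUF2, KIF14, NCAPG and TOP2A, had medians of 0.23, -0.55 and -0.63. All 6 genes called higher in RT112 were in the first class. The shares of all loci of like GC content were not counted.

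**Figure D4:**
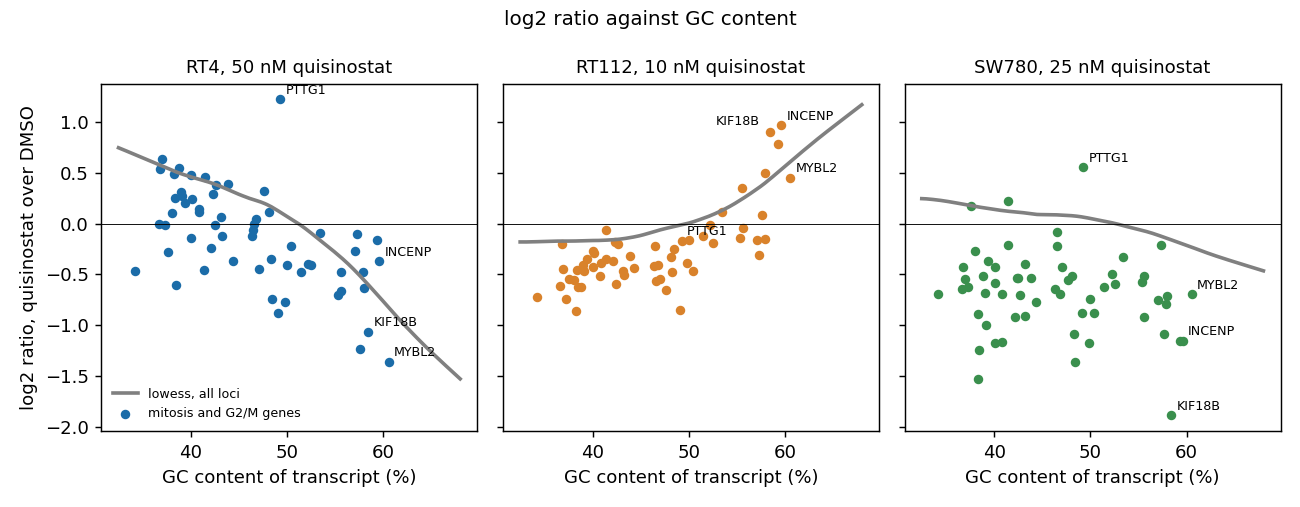
log2 ratio of quisinostat over DMSO (vertical axis) against the GC content of the longest protein-coding transcript (horizontal axis, %) for the 59 genes (points), 1 panel per cell line, with the lowess curve over all loci in grey. The curve slopes down in RT4 and SW780 and up in RT112. Most points of SW780 lie below the curve at every GC content, and PTTG1 lies above it in RT4 and SW780.

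After the lowess curve over all loci was subtracted in each line, the medians of the 59 genes were -0.30, -0.29 and -0.72 in RT4, RT112 and SW780. RT4 and RT112 were then close. The genes below -0.3 then numbered 29 in RT4 (33.5% of all loci), 27 in RT112 (24.7%) and 54 in SW780 (28.6%). Below -0.3 in all 3 lines were 15 genes, against 7.72% of all loci, namely the 7 named above with CCNB1, BUB1, BUB1B, CDCA5, KIF4A, HMMR, ECT2 and SMC4. Below 0 in all 3 were 42, against 24.6% of all loci. Genes above 0.3 in some line and below -0.3 in another then numbered 4 (CDC25B, INCENP, KIF18B and PLK1), against 18.2% of all loci. The MYBL2 ratios became -0.54, -0.16 and -0.47, so its higher value in RT112 did not remain. Those of FOXM1 became -0.14, -0.29 and -0.45, so that FOXM1 was below -0.3 in SW780 only. CDK1 became 0.07, -0.27 and -0.73. TOP2A became -0.22, -0.30 and -1.15, so that it was below 0 in RT4, as MKI67 was (-0.52). The median of the 5 anaphase regulators went from -0.41 to 0.07 in RT4, from -0.16 to -0.37 in RT112 and from -0.74 to -0.64 in SW780. The order of RT4 and RT112 in that role thus turned round, with CDC20 at 0.07, -0.55 and -0.65. INCENP (0.35, 0.44 and -0.96) and KIF18B (-0.47, 0.47 and -1.73) still differed between lines, and PTTG1 stayed at 1.11, -0.15 and 0.49. The medians of the 18 genes with at least 50% GC became -0.29, -0.17 and -0.64. Those of the 14 genes below 40% GC became -0.27, -0.38 and -0.82, so that both classes were alike in RT4. PLK1, below 0 in every line before the correction, became 0.39, -0.66 and -0.09. Spearman correlations of the genes' ratios between lines went from -0.34 to 0.20 for RT4 with RT112, from 0.38 to 0.31 for RT4 with SW780 and from -0.02 to 0.10 for RT112 with SW780. Whether GC content or biology sets the differences between lines was not tested.

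Across the 3 lines, taken as replicates, no gene passed an adjusted p of 0.05 in limma, with 0% of 9430 loci called. At an unadjusted p-value under 0.05, 7 of the 59 genes were lower (CCNB2, CKS1B, CENPN, KIF20A, KIF2C, MKI67 and HMGB2), against 4.16% of all loci, and 0 were higher, against 9.68%. The fitted log2 fold change, on the log2(FPKM + 1) scale, was below 0 for 58 of 59 genes. How many of all loci were below 0 in this fit was not counted. Without SW780 it was below 0 for 48 of the 59, and their median fold change went from -0.34 to -0.20. CENPN had the smallest adjusted p among the 59 genes, 0.281 by limma, with a fold change of -0.77 (SE 0.20) and lower values in 3 of 3 lines. HMGB2 followed, with -0.76 (SE 0.21) and an adjusted p of 0.306 by limma, also lower in 3 of 3 lines. PTTG1 had 0.53 (SE 0.28) and an adjusted p of 0.439 by limma, and was higher in 2 of 3 lines. After GC correction no gene passed either (0% of 8646 loci). At an unadjusted p-value under 0.05, 26 of the 59 were then lower, against 10.6% of all loci, and 0 higher, against 12.1%. The smallest adjusted p by limma became 0.126, for CENPN.

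Further mitosis genes, in 5 lists of 123 names, were less uniformly lower than the 59 in RT112 and SW780. Of the 102 with a ratio, 36 were called lower in RT4, 36 in RT112 and 52 in SW780. Over all loci the shares called lower were 33.5%, 25.2% and 28.2%, so that the count in RT4 was near the background. The same shares stand behind the lower counts of each list below. The medians of the 102 were 0.01, -0.19 and -0.32, and none passed limma at an adjusted p of 0.05. The cohesin and condensin II list came nearest, with 10 of 14 called lower in SW780, 7 in RT112 and 6 in RT4. It was led by SMC1A (-0.92, -0.37 and -0.61), an ATPase of cohesin, and NCAPG2 (-0.61, -0.26 and -0.70), of condensin II. WAPL, which releases cohesin, was level (0.01, -0.04 and -0.02), and MAU2, of the cohesin loader, had -0.77, 0.44 and 0.44. In the spindle, centrosome and cytokinesis list 19 of 36 were lower in SW780 and 17 in RT112, while 15 were higher in RT4 (40.3% of all loci). At its ends were PSRC1 (-2.20, 0.31 and -0.82) and STIL (-0.28, -0.88 and -1.13), and NEDD1 (0.74, -0.05 and 0.56) and the Polo-like kinase PLK2 (2.74, 0.99 and -0.08). In the kinetochore and checkpoint list 17 of 27 were lower in SW780, 6 in RT112 and 11 in RT4. PMF1 (-2.09, -0.23 and -1.15) and CENPX (-1.83, 0.30 and -0.91) were lowest, and CENPW (1.43, -0.12 and 0.70) and SGO2 highest, the latter from 0.201 to 4.84 FPKM in RT4 alone.

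The APC/C subunits and inhibitors had medians of -0.01, -0.09 and -0.26, and 4 of 15 were called lower in SW780, near the 28.2% of all loci. Their lowest were ANAPC11 (-2.06, 0.50 and -0.91) and ANAPC1 (-0.32, -0.57 and -0.27), and their highest ANAPC13 (0.26, 0.05 and 0.20) and ANAPC4 (0.90, -0.18 and -0.17). Of 10 entry kinases and phosphatases, 2 were called lower in SW780, 3 in RT112 and 1 in RT4, with medians of 0.42, 0.00 and 0.09. CDC25A, an activator of CDK1 and CDK2, was lower in every line (-0.49, -0.84 and -0.81), and BORA, a cofactor of AURKA, in SW780 only (-0.56). MNAT1 and CCNH, which with CDK7 form the CDK-activating kinase, had 1.05, 0.46 and 0.54, and 1.66, -0.35 and 0.37. Of 18 proteins of the MuvB, RB and E2F group, 8 were called lower in RT4, 6 in RT112 and 6 in SW780, against 33.5%, 25.2% and 28.2% of all loci. TFDP1, the dimer partner of E2F, was lower in each line (-0.94, -0.43 and -0.81). E2F6, a repressor of the family, was higher in each (1.37, 2.67 and 2.08), from levels of 0.265 to 1.49 FPKM with DMSO.

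CDKN1A was at 41.1 and 44.7 FPKM in RT4, 14.1 and 36.2 in RT112, and 46.3 and 66.3 in SW780. Its log2 ratios were 0.12, 1.36 and 0.52, with a limma adjusted p of 0.366 and higher values in 3 of 3 lines. Of the 5 genes listed as known to respond to HDAC inhibitors, CDKN1A among them, 2 were called higher in RT4, 5 in RT112 and 2 in SW780, while 1 was called lower in RT4 and 2 in SW780. Bladder epithelial markers were present, with KRT18 at 98.7 to 403 FPKM, all 18 in the table and 17 above 0 in every library. UPK3A was at 0 in both RT112 libraries. They moved with treatment too, with 11 of 17 called lower in RT4, 3 in RT112 and 12 in SW780, and 4, 9 and 4 called higher in the same order. Over all loci, 33.5%, 25.2% and 28.2% were called lower and 40.3%, 36.0% and 32.8% higher. The lowest means were those of UPK1A (-6.17, 2.21 and -4.97) and UPK2 (-2.92, 0.58 and -2.49). Of 12 stromal, endothelial and immune markers, COL1A1 and COL3A1 were in the table, at 0.0342 to 1.45 and 0.0896 to 6.19 FPKM. Their log2 ratios were 3.79, 3.06 and 3.18 for COL1A1, and 2.46, 1.90 and -1.06 for COL3A1. The part of these marker changes in the ratios of the mitosis genes was not tested.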

How the data were processed

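The 6 libraries of polyadenylated RNA (3 cell lines, DMSO or quisinostat, 1 library each) were grouped from their labels. The deposited values are FPKM. The authors made stranded libraries, used HISAT2 for alignment and StringTie for assembly, and extracted values with Ballgown. The submitters' processing notes list HISAT2 2.2.1, StringTie 2.2.1, SAMtools 1.15.1, Trimmomatic 0.36, CASAVA 1.8.2 and GRCh38. Which annotation was used, and which rows were kept, is not given in the sources used here. FPKM divides by transcript length and mapped fragments and holds no depth, and a GC correction by the authors is not stated.

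From these values, log2 ratios of quisinostat over DMSO were computed in each line without a pseudocount, over 9112 of 10066 loci above 0 in all 6 libraries. The threshold of -0.3 follows the study's criterion for genes lower in all 3 lines, and its use in single lines and its mirror image of 0.3 were chosen here. For the 9430 loci whose mean FPKM reached 1, log2(FPKM + 1) was fitted in limma 3.58.1 (R 4.3.3) with a block for cell line, a trend and Benjamini-Hochberg adjustment over all loci, and was tested on simulated data. The libraries pair because both of a pair come from 1 cell line. Fold changes on this scale understate low genes. GC content was that of each gene's longest coding transcript in GENCODE 29, and a lowess curve (span 0.3) was subtracted per line. Alternatives were other pseudocounts, filters, scalings, thresholds, GC correction and leaving out each line. Genes were named by a rule: all members by role, with values in every library for 12 standard mitosis genes, the 6 lowest and 6 highest by mean ratio and the most abundant of each role, and at most 2 at each end of the other lists, with CDKN1A. The members and lists were chosen with earlier results of these data known.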

Additional observations from a re-analysis of the deposited data

Results flagged for a closer look

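In 16 of the 59 genes (27.1%) the ratio of quisinostat over DMSO was above 0.3 in at least 1 line and below -0.3 in another. That share was near the 29.3% of all loci, so such splits were not particular to these genes. After GC correction 3 of the 16 still met this rule (KIF18B, INCENP and CDC25B). Over all 59 genes 6.78% then met it, against 18.2% of all loci. With 1 library per line and treatment, these differences between lines were not tested. Given as the highest minus the lowest log2 ratio, RT112 was the higher line in 6 genes: KIF18B (2.79), INCENP (2.13), CDC25B (1.94), MYBL2 (1.81), AURKB (1.27) and KIFC1 (1.21). RT4 was the higher line in 10: KIF14 (2.02), CDK1 (1.18), NUF2 (1.17), NUSAP1 (1.09), NCAPG (0.995), CKAP2 (0.972), NCAPH (0.970), RACGAP1 (0.928), SPC25 (0.907) and CKS2 (0.809). SW780 was the higher line in 0. All 6 of the first set have a GC content of at least 50%, and the 10 of the second set lie below that. The part of GC content in these differences was not tested.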

How the results depend on the processing

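The medians of the 59 genes stayed below 0 in each line under every pseudocount, filter, scaling and GC correction tried, from -0.06 to -0.30 in RT4, -0.29 to -0.41 in RT112 and -0.60 to -0.72 in SW780. Rescaling the libraries to the same sum moved the median of all loci in RT4 to 0.14. GC correction brought the genes above 0.3 to 4 in RT4 and 2 in RT112, those below -0.3 in all 3 lines to 15 and those lower at an unadjusted p under 0.05 in limma to 26. At a threshold of 0.5, 10 genes were below and 4 above in RT4, 15 below in RT112 and 2 below in all lines. At 1 the counts were 3 below and 1 above in RT4, 0 and 0 in RT112, 11 and 0 in SW780, and 0 below in all. Without RT4, 29 genes were below -0.3 in the remaining lines, without RT112 21 and without SW780 7, and above 0.3 the counts ranged from 0 to 1. A call in fewer lines is met more easily by any locus. The shares of all loci were not counted for these subsets or for the thresholds of 0.5 and 1. At an unadjusted p under 0.05 in limma, leaving out a line gave 0 (without SW780) to 15 (without RT4) lower genes and 0 to 1 higher. Of all 9430 loci, 74 were lower without SW780 and 240 without RT4. The fit without the cell line block gave 1 lower gene, against 106 loci. No setting gave a gene past an adjusted p of 0.05, and the smallest adjusted p of the 59 genes ranged from 0.126 (GC correction) to 0.973 (no block). Leaving out each line in turn, the fitted fold change crossed 0 for 11 genes: CDK1 from -0.48 to 0.091, CDC25B from -0.47 to 0.26, BUB3 from -0.24 to 0.076, SPC24 from -0.18 to 0.011, SPC25 from -0.32 to 0.086, KIF23 from -0.35 to 0.054, INCENP from -0.64 to 0.27, RACGAP1 from -0.42 to 0.034, NUSAP1 from -0.44 to 0.089, CKS2 from -0.28 to 0.12 and CKAP2 from -0.30 to 0.16. The fold change was above 0 without SW780 in 10 of these genes, without RT112 in 4 (CDK1, SPC25, CKS2, where the 0.12 arose, and CKAP2) and without RT4 in BUB3. For CKS2 quantile normalization gave 0.00015. The causes were not tested. Depth cannot be read from FPKM, so counting error is unknown.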
